A study of Mus musculus with 6 samples.

Results

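Interferon response and MHC class I genes were followed across 6 mouse neural stem cell lines. The set holds 37 genes chosen by name, of 18193 genes with a probe set of their own on the array, and 35 of the 37 had such a probe set. Each gene was read from its single-gene probe set of highest mean signal over the 6 arrays. *Isg15* was measured only by a probe set annotated to a second gene as well, and *Ifi44* was not analysed here. Total RNA of each line went to 1 Affymetrix array, after biotin labelling of cRNA from 6 ug of RNA. Of these independent lines, 3 are labelled FoxO-null and 3 FoxO wild-type, and the series compares the 2 labels. Neural stem cells divide in the brain and give rise to neurons and glia. FoxO factors are transcription factors held out of the nucleus by insulin and growth factor signalling. The labels name no treatment and do not give the FoxO genes deleted, the Cre or other means of deletion, the strain, the age, the brain region or the passage.

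Interferons are secreted proteins that alert cells to infection. Type I interferon binds the receptor chains *Ifnar1* and *Ifnar2*, and the kinases *Jak1* and *Tyk2* then activate *Stat2*, which acts with *Irf9* on interferon-stimulated response elements (ISRE). Interferon gamma acts on gamma-activated sites (GAS), and raises *Irf1*, *Nlrc5* and the MHC class I pathway, which shows peptides from inside the cell to cytotoxic T cells. Neural cells without infection are known for low class I and low interferon-induced transcripts.

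Promoters were read from RefSeq (GRCm38.p6), from 250 bases before to 50 after each start, and 29 of the 37 members had one. An ISRE core, searched on both strands as GAAA, any 2 bases and GAAA again, was present in 13 of these 29 (44.8%) and in 3.99% of all 27025 genes with a promoter. A GAS, searched as TTCNNNGAA, a motif that reads the same on both strands, was present in 6 of 29 (20.7%), against 9.55% of all genes. The FoxO core, searched as GTAAACA on both strands, was present in 2 of 29 (6.90%), against 4.05% of all genes. Overlapping matches were all kept, and a match describes letters and not a bound site. The members were picked as interferon genes, so their share of ISRE cores describes that choice. The stretches below end at the base before the start, run 5′ to 3′ on the strand of the gene and carry the matches in capitals. They show members with an ISRE core and a signal far above the control probe sets (*B2m* and *Ifitm2*), the GAS of *Irf1*, genes with 2 or 3 ISRE cores whose signal was near the level of the control probe sets (*Ifit1*, *Ifit3* and *Isg15*), and the guanylate-binding protein genes *Gbp2* and *Gbp3*, of which *Gbp3* also holds the FoxO core. The stretches are *B2m* at chr2:122147517-122147686 (+), *Ifitm2* at chr7:140955962-140956041 (-), *Irf1* at chr11:53769894-53770013 (+), *Ifit1* at chr19:34640759-34640888 (+), *Ifit3* at chr19:34583359-34583528 (+), *Isg15* at chr4:156200819-156200928 (-), *Gbp2* at chr3:142620573-142620662 (+) and *Gbp3* at chr3:142559794-142560043 (+).
B2m: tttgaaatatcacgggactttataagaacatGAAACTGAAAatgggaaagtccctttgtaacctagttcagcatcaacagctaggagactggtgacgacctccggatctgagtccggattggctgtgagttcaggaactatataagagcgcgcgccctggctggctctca
Ifitm2: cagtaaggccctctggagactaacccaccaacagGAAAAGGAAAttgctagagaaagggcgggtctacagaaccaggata
Irf1: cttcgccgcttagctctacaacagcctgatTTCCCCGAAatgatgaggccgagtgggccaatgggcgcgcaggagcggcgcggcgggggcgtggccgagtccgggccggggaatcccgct
Ifit1: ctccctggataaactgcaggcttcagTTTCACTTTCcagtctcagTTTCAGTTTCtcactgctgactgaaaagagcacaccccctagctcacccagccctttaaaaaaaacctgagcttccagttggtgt
Ifit3: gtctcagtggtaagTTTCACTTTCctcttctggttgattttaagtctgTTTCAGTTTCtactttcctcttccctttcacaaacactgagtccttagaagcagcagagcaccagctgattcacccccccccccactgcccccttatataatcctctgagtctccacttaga
Isg15: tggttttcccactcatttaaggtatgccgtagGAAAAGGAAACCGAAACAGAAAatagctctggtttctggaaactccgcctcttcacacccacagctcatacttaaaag
Gbp2: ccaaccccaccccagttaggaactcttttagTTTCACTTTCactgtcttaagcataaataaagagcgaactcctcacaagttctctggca
Gbp3: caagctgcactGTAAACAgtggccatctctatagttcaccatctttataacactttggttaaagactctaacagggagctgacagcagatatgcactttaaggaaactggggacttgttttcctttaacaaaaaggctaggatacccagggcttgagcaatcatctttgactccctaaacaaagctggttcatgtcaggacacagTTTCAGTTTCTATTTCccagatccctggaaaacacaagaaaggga

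The cells behind the arrays carried the markers of their label. All 10 neural stem cell markers checked, *Sox2* and *Nes* among them, read above the bacterial control probe sets on all 6 arrays, and their summed signal was 31503 to 34974 in the lines labelled FoxO-null and 25067 to 33207 in the lines labelled wild-type. Bacterial control probe sets match no mouse transcript, and the highest of them on each array, between 14.4 and 27.6, is used below as the control level. On FoxO-null 1, 2 and 3 it lay at 19.2, 27.6 and 26.9 and on wild-type 1, 2 and 3 at 14.4, 15.8 and 19.1, so it moved with the group, and its part in the results on weak members was not tested. Of 16 microglia and macrophage markers, 2 (*Csf1r* and *Laptm5*) were above the control level on all arrays and 7, *Aif1* and *Ptprc* among them, on none. *Trem2* read 25.4, 30.5 and 41.8 in FoxO-null lines 1, 2 and 3, all above the control level, and 10.9, 0.91 and 8.21 in the wild-type lines, all under it. The summed signal of the 16, *Trem2* included, was 285 to 342 in the lines labelled FoxO-null and 214 to 275 in those labelled wild-type. Only 5 of the 16, without *Trem2*, passed the filter on low signals used below. On average of log2 signals 2 of these 5 were higher and 3 lower under the FoxO-null label. The part of the microglia and macrophage markers in the results was not tested. Among 5 measured T cell markers 4 were above the control level on no array, while *Cd8a* was above it on 5 arrays and ranged from 11.5 to 76.4. Of 8 endothelial and 7 fibroblast markers, 0 and 1 were above it on all 6. Of 6 neuron markers 5 were above it on all arrays, with 2 higher and 4 lower on average of log2 signals under the FoxO-null label. The groups overlapped in all of these but *Tubb3* and *Syt1*, which read lower in every line labelled FoxO-null. All 6 astrocyte and all 6 oligodendrocyte lineage markers were above the control level on all arrays. Their summed signals were higher in every line labelled FoxO-null (3987 to 4718 and 13529 to 14837) than in any labelled wild-type (3171 to 3686 and 12136 to 13481). On the log2 scale 5 astrocyte markers were higher on average under the FoxO-null label and 1 lower. Of the oligodendrocyte lineage markers 4 were higher and 2 (*Olig1* and *Olig2*) lower, so they did not rise together. *Mbp*, part of the oligodendrocyte sum, read 4141, 4846 and 4302 in FoxO-null lines and 3612, 2463 and 2853 in wild-type lines. The part of the neuron, astrocyte and oligodendrocyte lineage markers in the results was not tested. FoxO transcripts went against the labels: 8 of 9 probe sets for *Foxo1*, *Foxo3* and *Foxo4* read higher on average under the FoxO-null label, 5 of them on all 3 arrays, and where they lie relative to the deleted part is not known here. The groups are therefore called by their labels throughout. A control for the 5′ end of 18S rRNA stood at 211 on wild-type 1, against 23.5 to 38.9 elsewhere.

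Class I chain and peptide loading genes were above the control level in every line. The other members ranged from under it to far above it. Of the 35 measured members, 18 were above the control level on all 6 arrays, 14 on 1 to 5 arrays and 3 on none. Over all genes 55.7% were above it on all 6, so the count of members is near the background and no result about them. Only 7 members had a mean signal over 100: *H2-K1* and *B2m*, both over 1000, and *H2-D1*, *Tapbp*, *Irf1*, *Ifitm2* and *Ifitm3*. Levels of different genes rest on different probes and are not ranked further. After the filter on low signals 24 members were tested and 11 were not. Of the measured members 68.6% were thus tested, near the 69.6% of all genes.

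**Figure D1:**
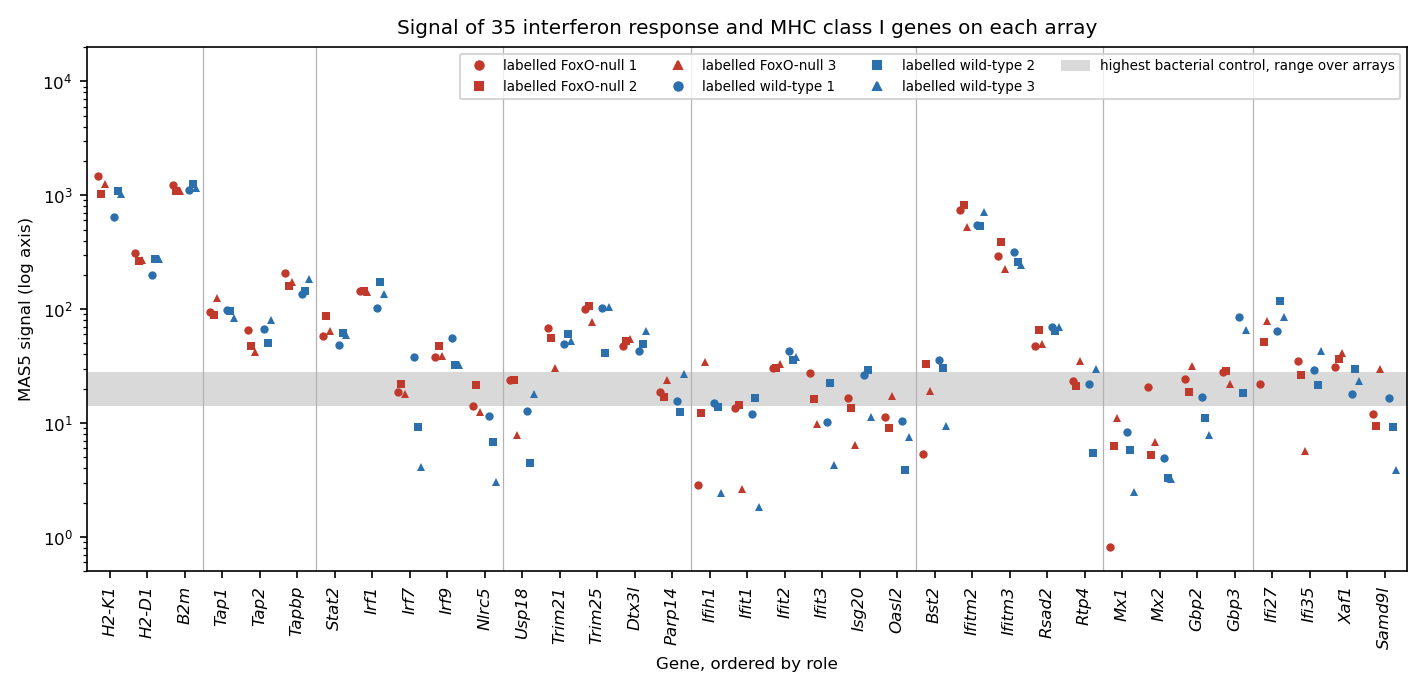
MAS5 signal on a log axis of the 35 measured members on each of the 6 arrays, red for lines labelled FoxO-null and blue for lines labelled wild-type, 1 symbol per array. The grey band spans the highest bacterial control of the arrays, from 14.4 to 27.6, and the antiviral genes from *Ifih1* to *Oasl2* lie mostly in or under it apart from *Ifit2*, while *H2-K1*, *B2m* and *Ifitm2* lie far above.

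No member passed the test between the groups. With limma and Benjamini-Hochberg adjustment over all 12663 genes tested, 0 of 24 members had an adjusted p under 0.05, where 5 genes, or 0.0395% of those tested, did. The smallest adjusted p of a member was 0.449. At an unadjusted limma p under 0.05 there was 1 member higher in the lines labelled FoxO-null (*H2-K1*), where 5.31% of all genes were higher, and 1 lower (*Ifi27*), where 4.9% were lower. Among the 24 tested members, the 3 arrays of one group all lay above the 3 of the other in 2 on the higher side (*Gbp2* and *Xaf1*; 8.08% of all genes) and 1 on the lower side (*Ifit2*; 7.93%). These shares are near the background, so they are no result about the members. Log2 fold changes, given as FoxO-null minus wild-type on the scale of log2(signal + 5.94), ran from -0.85 to 0.80, with 14 of 24 above 0. Their median was 0.11, against 0.0099 over all genes tested, and leaving out wild-type 2, FoxO-null 2 or wild-type 1 brought it to -0.022, 0.028 or 0.043. In bulk RNA, fewer cells that express a gene and less RNA per cell cannot be told apart.

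**Figure D2:**
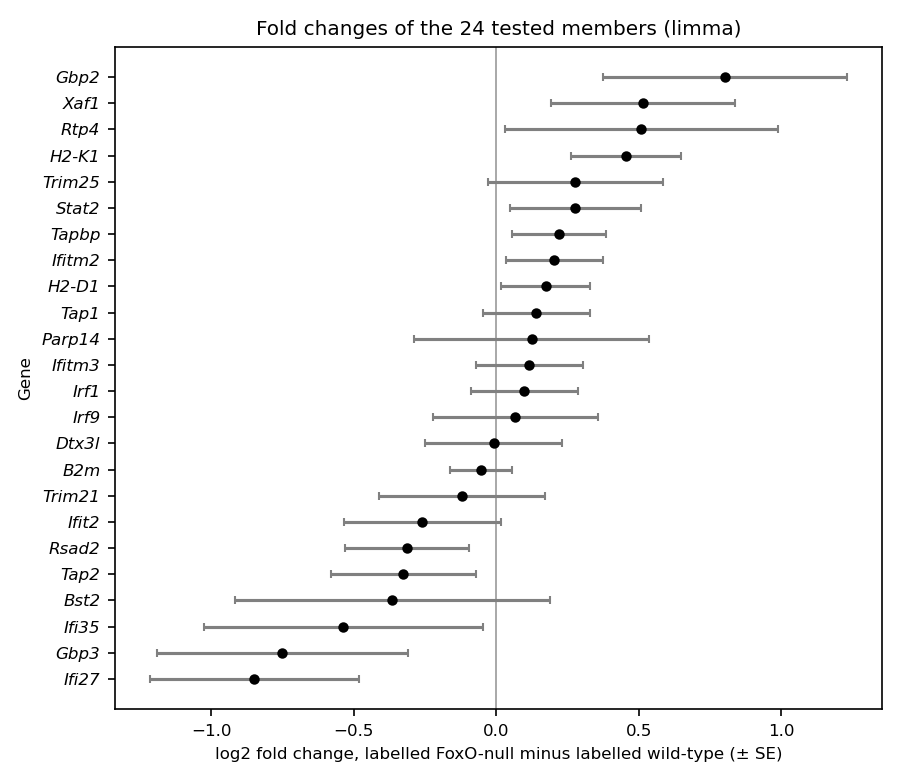
Log2 fold change of each of the 24 tested members, lines labelled FoxO-null minus lines labelled wild-type, with bars of 1 standard error from limma (3 arrays per group). Values run from -0.85 for *Ifi27* to 0.80 for *Gbp2*, on both sides of 0, and none passed an adjusted p of 0.05.

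The chains of the class I molecule gave strong signals in every line. *H2-K1*, a class I heavy chain, read 1474, 1026 and 1244 in FoxO-null lines 1, 2 and 3 and 645, 1100 and 1022 in wild-type lines 1, 2 and 3, the order kept for every gene below. The groups overlapped because FoxO-null 2 lay under wild-type 2, and wild-type 1 stood lowest. The log2 difference was 0.46 ± 0.19 (SE, limma adjusted p 0.449). It ran from 0.22, without wild-type 1, to 0.60 when 1 array was left out. Wild-type 1 had the high 18S rRNA control, whose part in this was not tested. The other 3 single-gene probe sets of *H2-K1* were also higher on average in the lines labelled FoxO-null, by 0.39, 0.41 and 0.50, and in 2 of them the groups did not overlap. Single-gene refers to the annotation, and whether the 4 also read related class I transcripts was not tested. They are therefore not taken as 4 separate readings of *H2-K1*. The smallest limma adjusted p of the 4, over all 45037 probe sets that are not controls, was 0.618. *H2-D1*, another heavy chain, read 313, 263 and 272 against 201, 277 and 278, with wild-type 1 again lowest and the groups overlapping. *B2m* encodes beta-2 microglobulin, the light chain that every classical class I molecule needs. It read 1241, 1081 and 1085 against 1122, 1250 and 1160. The lines lay close together, with a log2 difference of -0.053 ± 0.11 (limma adjusted p 0.908) and a range over the 6 arrays of 0.21 on the log2 scale. The second *B2m* probe set read 561, 715 and 465 against 678, 559 and 489.

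Probe sets named after *H2-D1* did not follow one another across the lines. Classical class I genes are among the most variable genes between mouse strains, and the labels do not give the H2 haplotype of the lines. Its part in the values below was not tested, and neither was whether these probe sets also read other class I transcripts. Of 9 single-gene probe sets, 4 were above the control level on all 6 arrays and 5 were not. The probe set 1452544_x_at read 149 on FoxO-null 3 and 5.81 and 15.2 on FoxO-null 1 and 2, against 6.55, 15.4 and 13.4 in the lines labelled wild-type. FoxO-null 3 was the only array with a signal above its control level there. Of 45037 probe sets that are not controls, 4750 were above the control level on 1 array alone, and 1452544_x_at had the highest signal among these. The 4 that followed, with signals of 79.6 to 67.9, were also on FoxO-null 3 and were annotated to *Speer4f1*, *Pank1*, *Actrt3* or no gene. The probe set 1425614_x_at read 91.5 on FoxO-null 3, 25.0 on wild-type 3 and 0.715 to 4.68 on the other 4. The probe set 1427651_x_at read 38.0 on FoxO-null 3 and 1.61 to 6.47 on the other 5. The bright *H2-D1* probe sets did not share this order: 1451784_x_at read 239, 225 and 168 on FoxO-null 1 to 3 and 159, 196 and 166 on wild-type 1 to 3, and 1451683_x_at read 53.9, 54.6 and 51.8 against 45.3, 59.3 and 52.4. These probe sets were singled out after their values were seen. A probe set shared by *H2-K1* and *H2-D1* read 107, 138 and 153 against 74.2, 110 and 122.

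**Figure D3:**
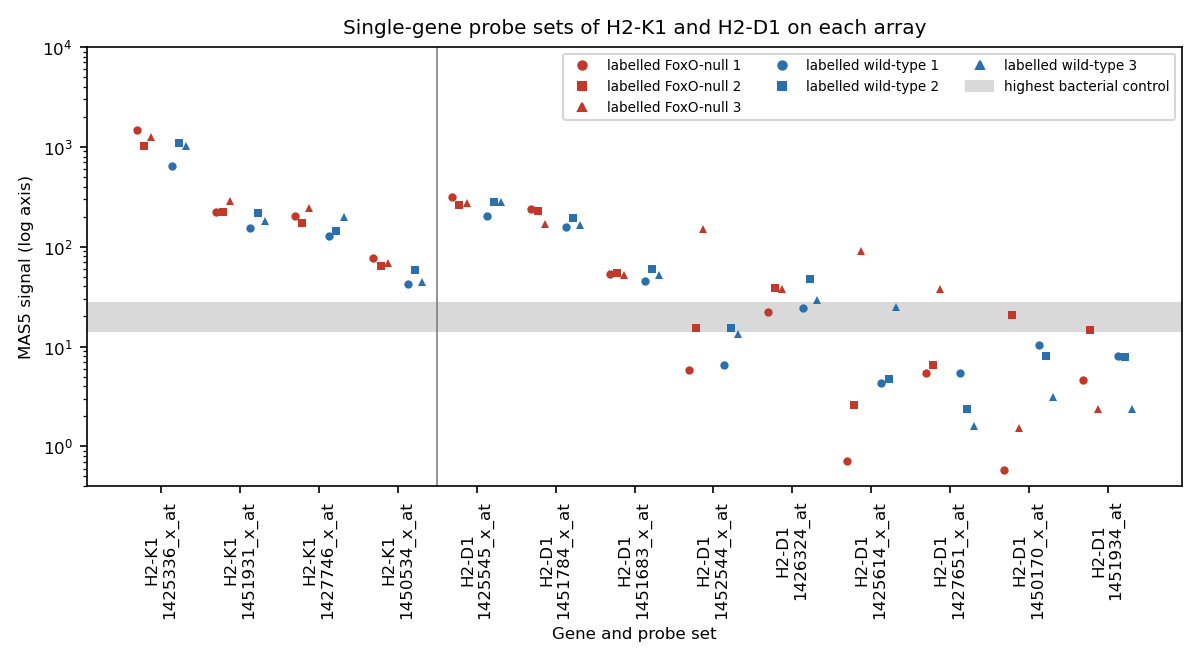
MAS5 signal on a log axis of the 4 single-gene probe sets of *H2-K1* (left of the line) and the 9 of *H2-D1* (right) on each array, red for lines labelled FoxO-null and blue for lines labelled wild-type. FoxO-null 3, the red triangle, stands alone at 149 in 1452544_x_at and highest at 91.5 in 1425614_x_at and 38.0 in 1427651_x_at.

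Peptide transport and loading genes showed no common direction. *Tap1*, a subunit of the pump that carries peptides into the endoplasmic reticulum, read 95.3, 89.0 and 125 against 97.5, 95.9 and 82.9. FoxO-null 3 was highest and the other 5 arrays lay within a narrow span. *Tap2*, the other subunit, read 65.1, 47.9 and 41.9 against 67.3, 50.6 and 81.0, with wild-type 3 highest and FoxO-null 3 lowest. *Tapbp*, the tapasin gene that holds empty class I molecules at the pump, read 206, 160 and 175 against 135, 144 and 184. The log2 difference of *Tapbp* was 0.22 ± 0.17 (limma adjusted p 0.689), and the groups overlapped in all 3 genes.

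Of the transcription factors that carry the interferon signal, the tested *Stat2*, *Irf1* and *Irf9* overlapped between the groups. *Stat2* read 58.2, 86.9 and 64.2 against 48.1, 61.2 and 58.7, with FoxO-null 2 highest. Its second probe set had all 3 lines labelled FoxO-null higher, at 35.0, 20.9 and 21.5 against 6.77, 17.5 and 3.86, with 2 of the 6 arrays above the control level. *Irf1*, a factor induced by interferon gamma, read 143, 144 and 143 against 103, 172 and 135. The lines labelled FoxO-null lay almost together, between the lowest and the highest line labelled wild-type. *Irf9*, the DNA-binding partner of *Stat2*, read 37.8, 47.0 and 39.2 against 55.4, 32.4 and 32.7, so that wild-type 1 was highest and the other lines of its label lowest. *Irf7*, which amplifies the type I response, was above the control level on 1 array, at 37.7 on wild-type 1, and spanned 4.08 to 22.1 elsewhere. *Nlrc5*, the class I transactivator, was above it on no array, with 14.2, 21.5 and 12.6 against 11.6, 6.85 and 3.06. All lines labelled FoxO-null lay above all lines labelled wild-type in *Nlrc5*, at signals under the filter.

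*Isg15*, a ubiquitin-like protein, and the ligases and modifiers around it gave mixed values. The probe set shared by *Isg15* and *Gm9706* read 30.8, 31.9 and 32.9 against 21.9, 16.5 and 23.7. All lines labelled FoxO-null lay above all lines labelled wild-type there, with a log2 difference of 0.52 ± 0.37 (limma adjusted p 0.817 over the probe sets). All 6 arrays were above their control level there, though close to it. *Usp18*, which removes *Isg15* from its targets and damps the receptor, was above the control level on 1 array, with a lowest signal of 4.45. *Trim21*, an antibody-binding ubiquitin ligase, read 68.2, 56.2 and 30.3 against 49.1, 60.2 and 52.7, and FoxO-null 3 was low. Its other probe set put FoxO-null 3 highest, at 62.1 against 31.5 to 59.0 on the other arrays. *Trim25*, a ligase that works with the RNA sensor RIG-I, read 101, 107 and 77.6 against 103, 41.3 and 105. Wild-type 2 was low, and without it the log2 difference went from 0.28 to -0.13. *Dtx3l* read 47.6, 52.6 and 54.5 against 43.1, 49.7 and 64.7, and its neighbour in the genome *Parp14*, an ADP-ribosyltransferase, read 18.6, 16.9 and 24.1 against 15.7, 12.4 and 26.8. In both, wild-type 3 was highest and the groups overlapped.

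Cytosolic sensors and RNA-binding effectors were weak in all lines. *Ifit2*, a member of the family that binds viral RNA, was the only 1 of these 6 genes to be tested. It read 30.5, 30.3 and 33.2 against 42.7, 35.4 and 37.9. All lines labelled wild-type lay above all lines labelled FoxO-null, with -0.26 ± 0.28 in log2 (limma adjusted p 0.798). *Ifit3*, its neighbour in the genome, and *Ifit1* were above the control level on 2 and 1 of the 6 arrays, with ranges of 4.27 to 27.3 and 1.84 to 16.5. *Ifih1*, the sensor MDA5, ranged from 2.41 to 34.2 and was above that level on FoxO-null 3 and wild-type 1. *Isg20*, an exonuclease, ranged from 6.45 to 29.0 and was above it on 2 arrays, wild-type 1 and 2. *Oasl2*, of the oligoadenylate synthetase family, ranged from 3.90 to 17.4 and was above it on none.

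Membrane and lipid effectors were all tested, and the groups overlapped in each. *Ifitm2* and *Ifitm3* encode proteins that block virus entry at endosomes and lie near each other in the genome. *Ifitm2* read 737, 821 and 528 against 548, 533 and 711. *Ifitm3* read 295, 386 and 225 against 320, 259 and 242. FoxO-null 2 was highest and FoxO-null 3 lowest in both, so the widest gaps lay within the lines labelled FoxO-null. The log2 differences were 0.20 ± 0.17 and 0.12 ± 0.19 (limma adjusted p 0.726 and 0.874). *Rsad2*, the viperin gene, read 47.9, 65.4 and 49.5 against 70.1, 64.6 and 70.3, with FoxO-null 2 above wild-type 2. Its other probe sets disagreed with one another: FoxO-null 3 was highest in 1421008_at, at 73.9, and lowest in 1421009_at, at 2.84. *Bst2*, the tetherin that holds virus particles at the cell surface, read 5.37, 32.7 and 19.3 against 36.1, 30.5 and 9.42. Each group held lines on both sides of the control level. *Rtp4* read 23.3, 21.1 and 35.3 against 22.1, 5.42 and 29.6, with wild-type 2 low.

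Among the GTPases, *Gbp2* had the highest log2 fold change of the members. It encodes a guanylate-binding protein that attacks vacuoles of intracellular microbes, and read 24.3, 18.9 and 31.7 against 16.8, 11.1 and 7.78. All lines labelled FoxO-null lay above all lines labelled wild-type, at 0.80 ± 0.43 (limma adjusted p 0.558), but only 3 of the 6 arrays were above their control level. *Gbp3* split the lines labelled wild-type: wild-type 1 and 3 stood at 85.1 and 65.1, wild-type 2 only at 18.5, and FoxO-null 1, 2 and 3 at 28.1, 28.8 and 22.1. The log2 difference of *Gbp3* was -0.75 ± 0.44 (limma adjusted p 0.60), -1.32 without wild-type 2 and -0.37 without wild-type 1. *Mx1* and *Mx2*, dynamin-like GTPases that the RefSeq gene table lists as transcribed pseudogenes in its C57BL/6J assembly, ranged from 0.825 to 11.0 and from 3.25 to 20.6. *Mx1* was above the control level on 0 arrays and *Mx2* on 1. In *Mx2* all lines labelled FoxO-null, at 20.6, 5.21 and 6.85, lay above all lines labelled wild-type, at 4.96, 3.29 and 3.25.

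The remaining interferon-induced members differed mostly between single lines. *Ifi27* had the lowest log2 fold change of the members, at -0.85 ± 0.37 (limma adjusted p 0.457). It read 22.2, 51.1 and 78.1 against 64.0, 118 and 84.9. FoxO-null 1 was lowest and FoxO-null 3 lay above wild-type 1, and without FoxO-null 1 the difference was -0.41. *Ifi35* read 34.7, 26.5 and 5.72 against 29.0, 21.6 and 42.7, with FoxO-null 3 low, and without that line the difference went from -0.54 to 0.011. *Xaf1*, which antagonises the apoptosis inhibitor XIAP, read 30.8, 36.3 and 41.5 against 18.1, 30.1 and 23.2. The groups did not overlap, differing in log2 by 0.52 ± 0.32 (limma adjusted p 0.620), but its second probe set differed by -0.24. *Samd9l* was above the control level on 2 arrays and ranged from 3.85 to 29.5.

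No line was high or low across the whole set. On FoxO-null 1 to 3, 14, 14 and 12 of the 24 tested members lay above their own mean over the 6 arrays, and on wild-type 1 to 3 the counts were 12, 10 and 15. Of all genes tested, 49.1% to 55.1% lay above their mean on an array. The highest array of a member was FoxO-null 1, 2 or 3 in 4 members each, wild-type 1 in 4, wild-type 2 in 3 and wild-type 3 in 5. The lowest array was wild-type 1 in 7 members, among them *H2-K1*, *H2-D1*, *Tapbp*, *Stat2* and *Irf1*, and FoxO-null 3 or wild-type 2 in 5 each. The spread of lines within a group was 0.30 at the median member, as an SD on the log2 scale, and 0.24 at the median gene, and 16 of the 24 members were over the latter. *Bst2* (0.85), *Ifi35* (0.74), *Gbp3* (0.72), *Rtp4* (0.66) and *Ifi27* (0.64) spread most, while *Ifit2* (0.095) and *B2m* (0.097) spread least. Of these, *Bst2*, *Ifi35*, *Gbp3* and *Rtp4* were above the control level on 3, 4, 5 and 4 arrays, and *Ifi27*, *Ifit2* and *B2m* on all 6. Members and genes were not matched for signal level, so the wider spread is not taken as a trait of the set.

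**Figure D4:**
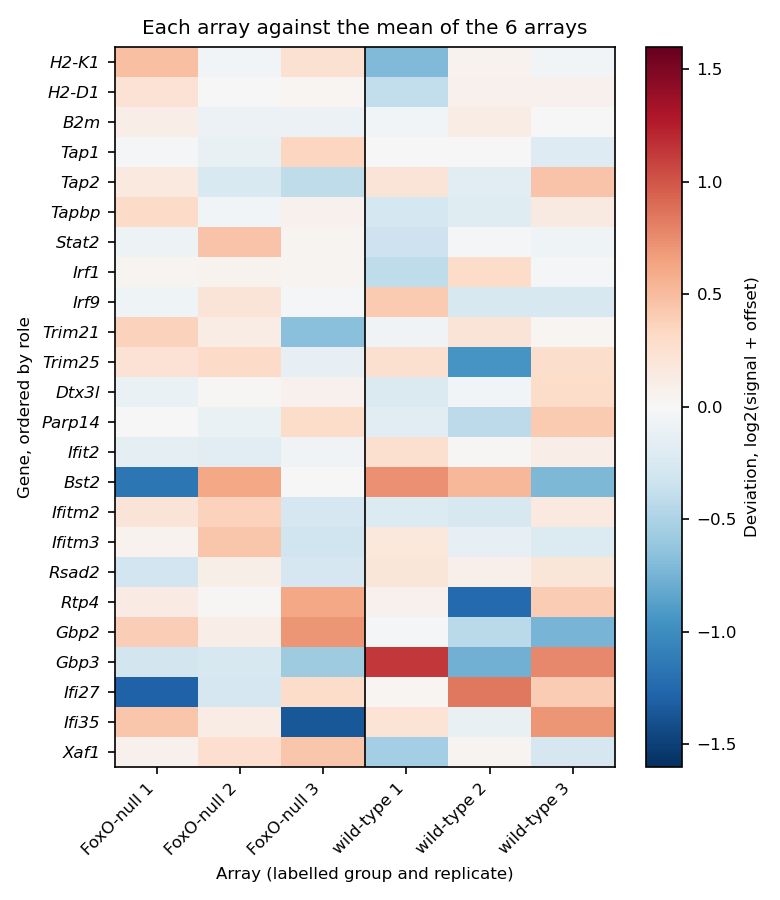
Deviation of each array from the mean of the 6 arrays on the log2(signal + offset) scale, for the 24 tested members in rows and the 6 arrays in columns, red for above and blue for below the mean. The strong colours are scattered over lines of both labels, such as *Gbp3* on wild-type 1, *Ifi27* on FoxO-null 1 and *Ifi35* on FoxO-null 3, and no column is of one colour.

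The rest of the pathway gave the same count of calls. In 7 further lists with 131 genes, 107 had a single-gene probe set, 71 were tested and 0 passed in limma. The unadjusted limma p was under 0.05 for 0 genes on the higher side and 1 on the lower (*Igtp*), beside the 5.31% and 4.9% of all genes. Of the 71, 50 had a log2 fold change above 0, with a median of 0.073, and 51.8% of all genes tested did. *Igtp*, an immunity-related GTPase, read 24.7, 26.6 and 25.7 against 40.2, 44.3 and 44.4. This came to -0.63 ± 0.28 in log2 (limma adjusted p 0.474). Its groups lay well apart, and all 3 arrays labelled wild-type but only FoxO-null 1 were above their control level.

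Receptors and kinases were present while the ligands were near the control level. The 2 tested ligand genes were *Ifnb1*, at 15.5 to 30.7 over the 6 arrays, and *Ifna1*, at 5.79 to 30.1. Of 12 tested receptor and JAK-STAT genes, 10 were above the control level on all arrays and 10 had a log2 fold change above 0. *Ifnar1* read 174, 181 and 172 against 162, 154 and 141, so the groups did not overlap, with a difference of 0.20 ± 0.14 (limma adjusted p 0.660). *Jak2* was at 0.29 ± 0.15 and the feedback inhibitor gene *Socs1* at 0.67 ± 0.47. Among 11 tested sensing genes, with 4 above 0 and 7 below, *Dhx58* was at 0.43 ± 0.31, *Myd88* at 0.29 ± 0.27 and *Mavs* at 0.17 ± 0.17.

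Antigen presentation genes outside the set fell on both sides of 0. Of 9 tested immunoproteasome and peptide processing genes 6 were above 0, with the proteasome activator genes *Psme3* at -0.14 ± 0.13 and *Psme1* at 0.054 ± 0.16 and the immunoproteasome subunit gene *Psmb9* at 0.18 ± 0.48. Of 6 tested other class I genes 3 were above 0, with *H2-M3* at -0.63 ± 0.46, *Mr1* at 0.26 ± 0.31 and *H2-T3* at 0.22 ± 0.37. Of 4 tested class II genes 2 were above 0: *H2-Ab1* was at 0.37 ± 0.25 and *H2-DMa* at 0.34 ± 0.28, and *Cd74*, the invariant chain, was at -0.49 ± 0.38. In the list of further interferon-induced genes 23 of 27 tested were above 0, with a median of 0.17, where 51.8% of all genes tested were above 0. The summed signal of its 46 measured genes was 1534 to 1685 in the lines labelled FoxO-null and 1352 to 1398 in those labelled wild-type. In every other pathway list the sums of the groups overlapped. Genes of a list share the 6 arrays and are not independent, and no list test was run. *Adar*, an RNA-editing enzyme gene, read 269, 246 and 261 against 210, 231 and 218, with groups that did not overlap and a difference of 0.23 ± 0.13 (limma adjusted p 0.564). *Gbp7* read 169, 97.9 and 97.0 against 145, 53.5 and 58.4, where line 1 of each label was high, at 0.56 ± 0.34.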

How the data were processed

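Transcript levels of 6 mouse neural stem cell lines, 3 per label, were analysed from the table of intensity signals, 1 array per line. The authors made these intensity values with MAS5, per the submitters' processing notes; version, background step and detection calls are not given in the sources used here. On each array the mean after removal of 2% of values at each end was 100, so the deposited scaling was kept. Of 45101 probe sets 64 were controls. The platform's annotation gave 1 gene to 34945, several to 932 and none to 9160. Signals were turned into log2(signal + 5.94), the 20th percentile of all values, which understates changes of weak genes. Genes with a mean log2 value under the 40th percentile of the probe sets (a signal of 16.2) were left out. The groups were compared over 12663 genes in R 4.3.3 with limma 3.58.1 (lmFit, then eBayes with an intensity trend). The test was two-sided, with Benjamini-Hochberg adjustment. The procedure was also run on simulated data, where the changed genes had larger changes than any member. It therefore does not show how often changes of the members' size would be found. Probe sets were fitted separately without the filter. Replicates are separate lines per the labels, and the number of arrays limits the precision. All 37 members were named. Of each pathway list up to 3 genes of smallest p were named. Tested members got every array's signal, and the fold change and p where the groups did not overlap or the unadjusted p was under 0.05; others given were added after their values were seen. Members and lists were chosen with earlier results of these data known.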

Additional observations from a re-analysis of the deposited data

How the results depend on the processing

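No member passed the limma threshold in any of the 16 alternatives, with a lowest adjusted p of 0.301. Of 24 members, 14 kept their direction in every alternative in which they were tested. Not all were tested in each alternative: the filter at the 60th percentile left 15 members. Over all genes, the 5 limma calls (1292 genes at an unadjusted p under 0.05) became 1 with an offset of 1, without the filter, with quantile normalization or with the mean of all probe sets, and 0 with median centring (1047 unadjusted) or without the intensity trend (1107 unadjusted). Of the 5 calls 4 were higher and 1 lower; the 1 call with quantile normalization was higher, and without wild-type 1 there were 1 higher and 2 lower. Leaving out 1 array gave 0 (without FoxO-null 1, 812 unadjusted) to 11 (without wild-type 3). The 2 members at an unadjusted p under 0.05 became 1 without the filter or with median centring, and 0 (without FoxO-null 1) to 2 when 1 array was left out. The median log2 fold change of the members, 0.11, was 0.040 with median centring, which moved the median of all genes from 0.0099 to -0.058, and ran from -0.022 to 0.12 when 1 array was left out. The cause of these changes was not tested.

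Signs turned for *Irf9* (-0.00061) and *Psme1* (-0.014) with median centring, and with the mean of all probe sets for *Dtx3l* (0.12), *Rsad2* (0.036), *H2-T3* (-0.33), *H2-DMa* (-0.060) and *Adar* (-0.044). When 1 array was left out, signs turned for *Irf1* (-0.082 to 0.27), *Irf9* (-0.047 to 0.29), *Trim21* (-0.33 to 0.18), *Trim25* (-0.13 to 0.49), *Dtx3l* (-0.13 to 0.14), *Parp14* (-0.055 to 0.36), *Bst2* (-0.81 to 0.12), *Ifitm3* (-0.074 to 0.31), *Ifi35* (-0.89 to 0.011), *Ifnb1* (-0.0034 to 0.37), *Psmb9* (-0.27 to 0.65), *Psme1* (-0.080 to 0.19) and *H2-T3* (-0.20 to 0.51). Replicate numbers are shared by the labels, but the deviations of same-numbered lines correlated at 0.023, 0.092 and 0.12 across genes, so they were not taken as pairs, although each line except wild-type 1 correlated best with its own number. With the replicate block 6 genes and 0 members passed, and the median of the members was 0.11. Weak signals limit what can be seen: 17 of 35 measured members were not above the bacterial controls on every array.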
